A study of Mus musculus with 6 samples.

Results

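Selenbp1 and Selenbp2, a pair of closely related mouse genes on chromosome 3, were examined in kidney RNA of WT and Selenbp1-KO mice. Every non-control probe that the array files name Selenbp1 or Selenbp2 was taken, which gave 2 probes, 1 for each gene, among 56605 probes for 37325 genes. The WT group was 3 male C57BL/6J mice, and the Selenbp1-KO group was 3 male mice in which Selenbp1 was disrupted, labeled with the same strain. All 6 mice were 8 weeks old and had been fasted for 20 h, and RNA of 1 kidney of each mouse was labeled with Cy3 and hybridized to 1 array. The KO is labeled only by the gene. The methods refer to earlier work for its allele, so the removed part of Selenbp1 and its place relative to the probe are not given in the sources used here. The methods name a supplier for WT mice and do not call the groups littermates, so genotype and colony cannot be told apart.

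Selenbp1 encodes selenium-binding protein 1, which holds selenium without being a selenocysteine protein of the glutathione peroxidase kind. It acts as a methanethiol oxidase, turning methanethiol, a sulfur compound made by gut bacteria and from methionine, into hydrogen sulfide, hydrogen peroxide, and formaldehyde. Kidney and liver are rich in it, and the aryl hydrocarbon receptor, which dioxins activate, induces its gene. Selenbp2 encodes a very similar mouse protein that was first described as an acetaminophen-binding protein of the liver. The comparison asked how far each of these signals fell in Selenbp1-KO kidneys, and whether they fell by the same amount.

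The probe sequences come first because they bear on which transcript a signal can be assigned to. Each probe is 60 bases long and lies toward the 3′ end of its transcript. The Selenbp1 probe (NM_009150) begins at base 1625 of the transcript and maps to chr3:94748621-94748680 on mm9, the build of the files. The Selenbp2 probe (NM_019414) begins at base 1564 and maps to chr3:94508198-94508257, 240.423 kb away. A 30-base stretch of each is shown, bases 30 to 59 of the Selenbp1 probe and bases 31 to 60 of the Selenbp2 probe, and the capitals mark AATAAA, the usual signal for cutting and polyadenylating a transcript.
Selenbp1 probe: gaagcaccaagaAATAAAatgctgaaactt
Selenbp2 probe: cagcgagatctgtagagcagcatctctgta
The longest run of bases that the whole probes share on the same strand is 5, so neither probe is a copy of the other. The probes begin at different bases of their transcripts, so this cannot show which gene's RNA either probe binds. G and C make up 38.3% of the Selenbp1 probe and 55.0% of the Selenbp2 probe.

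The array files list both transcripts, NM_009150 and NM_019414, among the accessions of each probe. Of the 33903 probes with a RefSeq accession that could be named, 892 (2.63%) list transcripts of more than 1 gene. On the files' own annotation, therefore, neither signal can be assigned to 1 of the genes alone, and each is called here by the gene name its probe carries. Transcript sequences were not available here to align the probes to, and how much of either signal comes from the other gene's RNA was not tested.

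In WT kidneys, both probes were among the brightest of the array. The Selenbp1 probe had a processed signal, a linear fluorescence after background subtraction, of 95292, 97379, and 67499 for replicates 2, 3, and 4. The Selenbp2 probe had 105120, 106235, and 68822 on the same arrays. Replicate 4 was lower for both probes, and its 75th percentile over all non-control spots was lower too, at 519 against 711 and 751 in replicates 2 and 3. Signals were therefore divided by the 75th percentile of their array and put on a log2 scale, so that 0 is the 75th percentile.

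On that scale, the Selenbp1 probe stood at 7.07, 7.02, and 7.02 for WT replicates 2, 3, and 4 respectively, and the Selenbp2 probe at 7.21, 7.15, and 7.05. Ranked among all 56605 probes, 241, 261, and 297 probes were brighter than the Selenbp1 probe on these arrays, and 196, 225, and 287 were brighter than the Selenbp2 probe. Both thus lay between percentiles 99.5 and 99.7 on the WT arrays. Among the probes well above background alone, the WT mean percentile was 99.1 for Selenbp1 and 99.2 for Selenbp2. Brightness also depends on the probe's own sequence, so these ranks place the signals and do not compare the amounts of the transcripts.

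**Figure D1:**
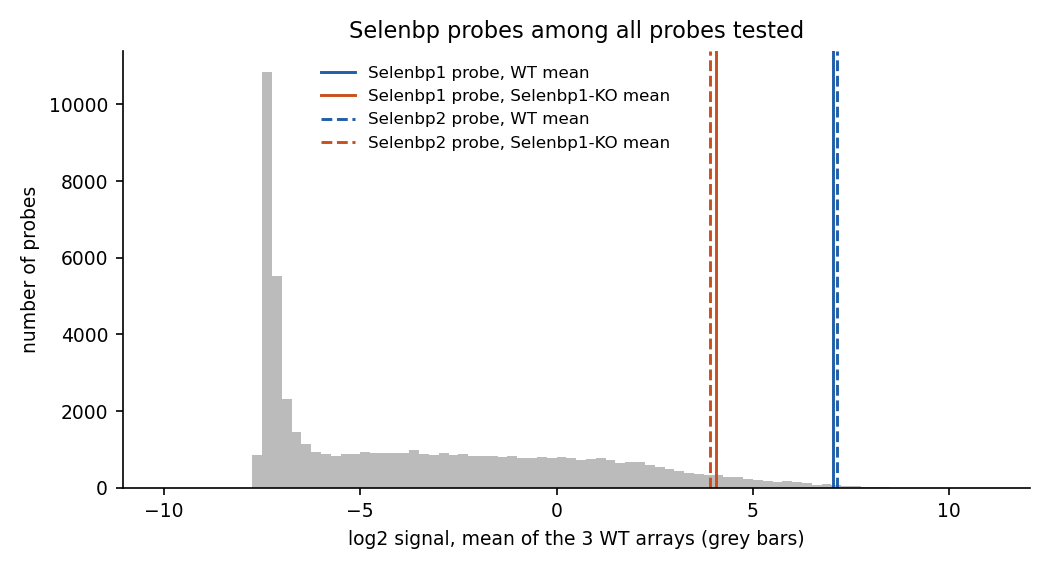
Number of probes (y axis) by mean log2 signal over the 3 WT arrays (x axis, 0 is the 75th percentile of an array), with vertical lines at the means of the Selenbp1 probe (solid) and the Selenbp2 probe (dashed) in WT (blue) and Selenbp1-KO kidneys (orange). The WT lines, at 7.04 and 7.13, stand at the far right of the distribution, and the Selenbp1-KO lines, at 4.07 and 3.92, still stand to the right of most probes.

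The Selenbp1 signal was lower in Selenbp1-KO than in WT kidneys on every array. For replicates 1, 2, and 3 of the KO, the scanner signal was 9929, 7544, and 10002, which is 4.13, 3.98, and 4.10 on the log2 scale. The WT mean was 7.04 ± 0.026 (SD, n = 3) and the Selenbp1-KO mean 4.07 ± 0.079 (SD, n = 3), and the lowest WT array was 2.89 above the highest Selenbp1-KO array. This gave a KO minus WT difference of −2.96 (standard error 0.098, 95% confidence interval −3.20 to −2.73, adjusted p = 0.0021 from limma). This is a signal 7.80-fold lower (6.62 to 9.21), or 12.8% of the WT level. As the gene the KO was made in, Selenbp1 checks the labels, and no array went against its label, although a probe outside the removed part would not read the deletion itself.

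The signal of the Selenbp2 probe fell at least as far, although the labels do not name Selenbp2 as targeted. The same KO arrays gave this probe 8930, 6945, and 8781 before scaling and 3.98, 3.86, and 3.91 on the log2 scale. The WT mean was 7.13 ± 0.079 (SD, n = 3) and the Selenbp1-KO mean 3.92 ± 0.059 (SD, n = 3), with a gap of 3.07 between the nearest arrays of the groups. The difference was −3.22 (standard error 0.101, 95% confidence interval −3.46 to −2.97, adjusted p = 0.0021 from limma). The signal was 9.29-fold lower (7.84 to 11.02), or 10.8% of the WT level. The paper describes renal Selenbp2 expression as low, and its RT-PCR found Selenbp2 mRNA reduced by fasting in both genotypes. Its immunoblot detected no Selenbp protein in Selenbp1-KO kidneys, fasted or not. The WT signal of this probe was bright, but it is RNA read by a probe whose annotation names both genes. It therefore does not measure Selenbp2 alone and cannot be set directly against that description. How much of the signal, or of its fall, was Selenbp1 RNA was not tested.

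These were the only probes lower in Selenbp1-KO kidneys at an adjusted p under 0.05, 2 of 56097 tested (0.00357%), and none was higher at that threshold. The methods counted a gene as changed at p under 0.05 with no adjustment, and 7.98% of all probes met this, 1.51% lower and 6.47% higher. Every Selenbp1-KO array lay below every WT array for 4.06% of all probes, so the absence of overlap is in itself common. The size of the fall was not common. Ranked by absolute log2 difference, Selenbp2 was first and Selenbp1 the third of all probes. Between them stood Slpi, which encodes a secreted inhibitor of leukocyte proteases, with a value 3.21 higher in Selenbp1-KO kidneys and an adjusted p of 0.279. With 3 arrays against 3, the exact two-sided permutation test of either member alone gave p = 0.10, the smallest it can give. The median difference of all probes was 0.11 on this scale, so relative to it both falls are slightly larger.

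**Figure D2:**
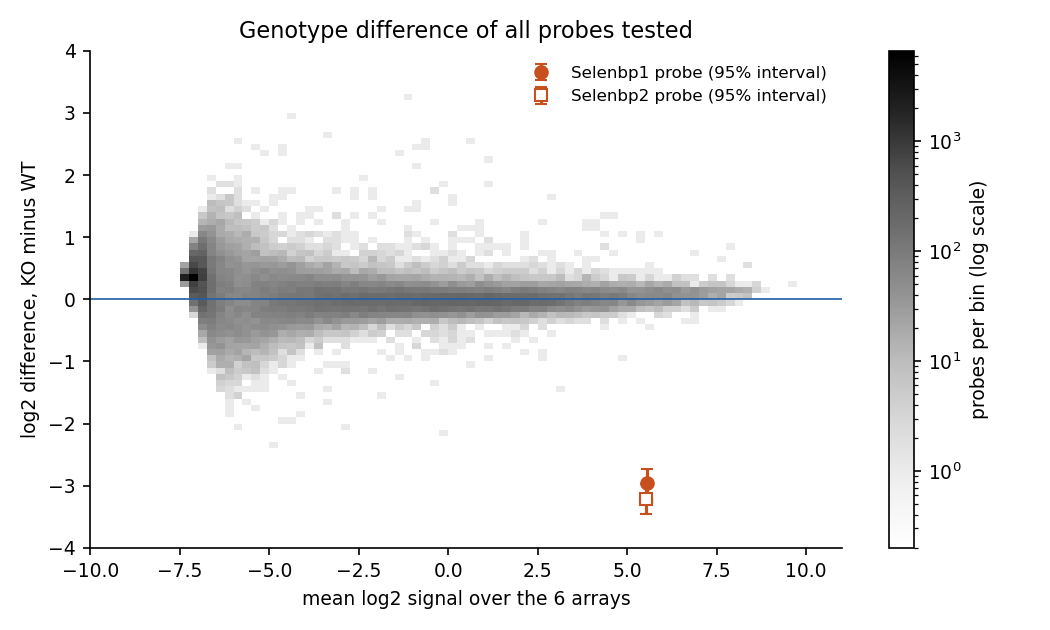
Log2 difference between Selenbp1-KO and WT kidneys (y axis, KO minus WT) against the mean log2 signal over the 6 arrays (x axis) for all 56097 probes tested, with shading for the number of probes per bin on a log scale. The Selenbp1 probe, at −2.96, and the Selenbp2 probe, at −3.22, lie together below all other probes, with bars for their 95% confidence intervals.

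The WT and Selenbp1-KO replicates were tightly grouped for both genes. In WT kidneys, only 2.02% of the probes tested had a smaller SD than Selenbp1, and 14.0% had a smaller SD than Selenbp2. In Selenbp1-KO kidneys, these shares were 16.2% and 10.3%. The shares are taken over all probes tested, those near background included, and are not matched for signal. A bulk kidney sample cannot tell fewer cells of a type from less RNA per cell. The 10 markers of kidney segments, from the megalin gene Lrp2 of the proximal tubule to the slit diaphragm gene Nphs1 of the glomerulus, were all well above background on every array. None of the 10 differed at an unadjusted p under 0.05, against 8.00% of all genes, and their median difference was −0.03.

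The Selenbp1-KO kidneys kept a strong signal at both probes. Both were well above background and unsaturated on all 6 arrays. Against the lowest probe well above background on the same array, the Selenbp1 signal of the KO arrays was 1364-fold, 452-fold, and 632-fold higher, and the Selenbp2 signal was 1226-fold, 416-fold, and 555-fold higher. That lowest probe stood at −6.28, −4.84, and −5.21 on the log2 scale of KO replicates 1, 2, and 3. It varied more between these arrays than either member's signal, so the spread of the folds is mostly its own. Among all probes, 2468, 2598, and 2522 were brighter than Selenbp1 on these arrays, which places it at percentiles 95.4 to 95.6. For Selenbp2 they were 2674, 2764, and 2786, which places it at percentiles 95.1 to 95.3. The remaining signal of each probe could be RNA of either gene or of other transcripts the probe binds, and these cannot be told apart here.

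The pair did not fall by quite the same amount in these arrays. Within an array, where the scaling cancels, the Selenbp2 log2 signal minus the Selenbp1 log2 signal came to 0.14, 0.13, and 0.03 for the WT arrays in order of replicate and to −0.15, −0.12, and −0.19 for the Selenbp1-KO arrays. Selenbp2 was thus the brighter probe on every WT array and the dimmer on every Selenbp1-KO array. The difference between the falls was −0.25 (standard error 0.041, 95% confidence interval −0.36 to −0.14), which is a ratio of 1.19 between the fold changes. The interval, from the spread of 3 arrays in each group, leaves out 0. The exact two-sided permutation test over the arrays gave p = 0.10, the smallest that this test can give with 3 against 3.

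The promoters of the genes are shown because their start regions are nearly the same. Whether that has any part in the fall of both signals was not tested. The 250 bases before each start site, on the plus strand of chromosome 3, are given from RefSeq on GRCm38.p6, another build than that of the probes. They are chr3:94932833-94933082 for Selenbp1 and chr3:94693323-94693572 for Selenbp2. Capitals mark GCGTG, the core of the site that the aryl hydrocarbon receptor and its partner Arnt bind.
Selenbp1 promoter: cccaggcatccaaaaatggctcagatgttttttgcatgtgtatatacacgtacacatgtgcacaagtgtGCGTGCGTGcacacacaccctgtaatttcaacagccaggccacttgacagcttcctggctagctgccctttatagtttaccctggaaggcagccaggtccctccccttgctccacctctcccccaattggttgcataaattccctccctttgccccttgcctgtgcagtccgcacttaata
Selenbp2 promoter: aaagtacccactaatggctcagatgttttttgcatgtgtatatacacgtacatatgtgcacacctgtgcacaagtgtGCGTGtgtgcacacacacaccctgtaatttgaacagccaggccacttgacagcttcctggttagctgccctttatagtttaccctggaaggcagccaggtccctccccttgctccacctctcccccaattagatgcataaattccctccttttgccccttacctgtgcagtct
With the 50 bases after the start site added, the alignment has 300 columns, of which 272 (90.7%) are identical, 16 are substitutions, and 12 are gaps. The longest identical run is 69 bases.

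No other promoter in the RefSeq table shares as much with that of Selenbp1. Of the 289 words of 12 bases in the Selenbp1 promoter, 155 also occur in that of Selenbp2, and at most 5 occur in any of the others among 32851 promoters. On either strand, GCGTG was found 2 times in the Selenbp1 promoter, at −181 and −177 relative to the start site with 1 base in common, and 1 time in that of Selenbp2, at −173. It occurs in 32.4% of all promoters. TATAAA, the core of a TATA box, was found on the opposite strand of each, and 13.6% of promoters hold it on either strand. TGACNNNGC, the core of the antioxidant response element, was in neither and occurs in 12.4%. These are matches of letters and do not show binding.

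The genes that lie between and around the pair did not share the fall. With the 5 nearest genes on each side of the Selenbp1 probe, Selenbp2 being one of them, 9 other genes were read, and 0 of the 9 differed at an unadjusted p under 0.05 (8.00% of 37028 genes did, with each gene read by its brightest probe). Their differences ranged from −0.41 to 0.23, with a median of −0.08. The median over all genes was 0.13, but it includes the many genes near background and is not matched for signal. Psmb4, a proteasome subunit and the brightest of them, lies at −60.3 kb from the Selenbp1 probe, on the side of Selenbp2, and had 5.59, 5.61, and 5.74 in WT against 5.67, 5.67, and 5.69 in Selenbp1-KO kidneys. Its groups overlap, with a difference of 0.03. Cgn, which encodes the tight junction protein cingulin and also lies between the pair, differed by −0.09, and Pogz, a chromatin protein gene, by −0.08.

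On the other side of the Selenbp1 probe, Rfx5, a regulator of class II histocompatibility genes 15.9 kb away, differed by 0.23. Without WT replicate 4 its difference was 0.026. With the slide row as a block, which sets the Selenbp1-KO arrays against WT replicate 4 alone, it was 0.65. B230398E01Rik differed by 0.11, the lipid kinase gene Pi4kb by 0.05, and the zinc finger gene Zfp687 by −0.13. The lowest of the 9 values, −0.41 for A730011C13Rik and −0.37 for ENSMUST00000118050, come from probes that were not well above background on any array, and the latter passed with the replicate number as a block (−0.58) and without WT replicate 4 (−0.80). With the genes around the Selenbp2 probe added, 14 neighbors were read, 0 of them passed, and the median was −0.05.

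**Figure D3:**
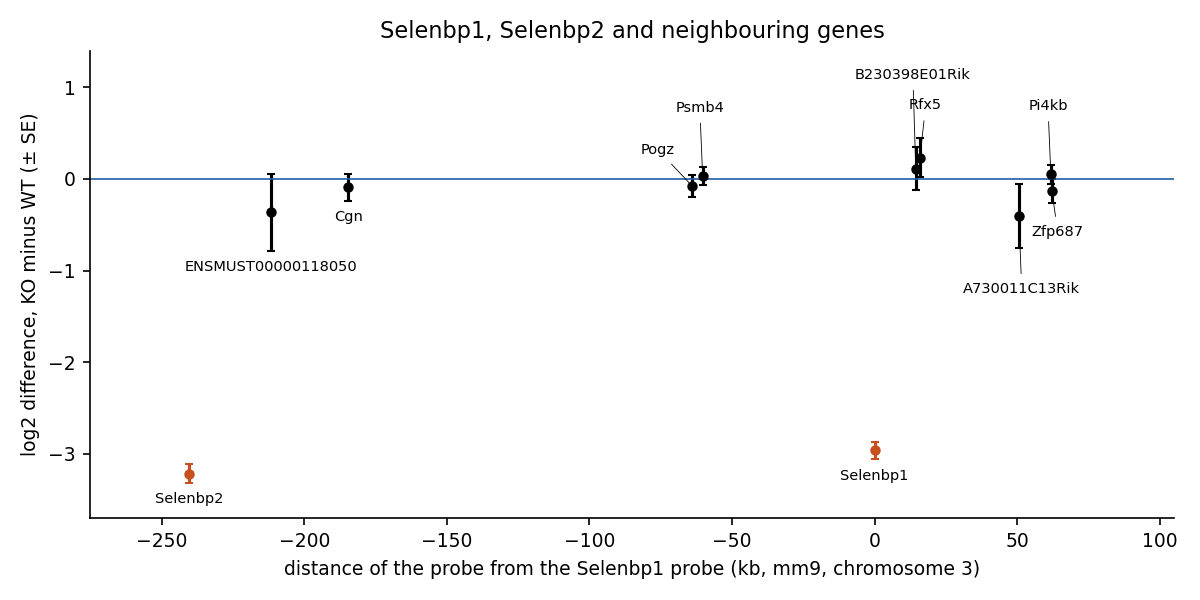
Log2 difference between Selenbp1-KO and WT kidneys (y axis, KO minus WT, bars of ± 1 standard error) against the distance of each probe from the Selenbp1 probe in kb (x axis). Selenbp1, at −2.96, and Selenbp2, at −3.22 and 240.423 kb away, are in orange, and the 9 other genes, in black, lie between −0.41 and 0.23.

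The gene whose pattern over the 6 arrays was most like that of Selenbp1 was Selenbp2. Likeness was measured as the root mean square distance between log2 signals, each centered on its own mean, over 19264 genes whose probe stood well above background throughout the 3 arrays of a genotype, and it is a description of these arrays. The distance was 0.13 for Selenbp2, 0.45 for Stard6, 0.86 for Ddah1, 1.004 for 0610040F04Rik, and 1.04 for Gm14858. Stard6, which encodes a lipid transfer protein of the START family, had −3.62, −3.85, and −3.69 across the WT arrays. It failed the test for being well above background in all Selenbp1-KO kidneys. By the group means under the scanner's background subtraction, and with no error attached, it was at least 2.69-fold lower there. In the same way, 0610040F04Rik was at least 1.59-fold lower and Gm14858 at least 1.89-fold lower. The distances of all of these thus rest partly on signals near background. The groups of Gm14858 overlap, at −4.57 for the lowest WT array and −4.52 for the highest Selenbp1-KO array. With normexp background correction, the differences were −0.38 for Stard6, −0.034 for 0610040F04Rik, and 0.0069 for Gm14858, short of these bounds. Ddah1, whose product breaks down the nitric oxide synthase inhibitor asymmetric dimethylarginine, was well above background on all 6 arrays. Its WT values were 3.72, 3.97, and 3.69 and its Selenbp1-KO values 2.12, 1.64, and 3.17, so the groups do not overlap, but the Selenbp1-KO arrays spread widely.

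Lists of genes that make or act on the products of methanethiol oxidase were read next. The first, of sulfide and methanethiol metabolism, holds enzymes that make hydrogen sulfide, oxidize it, or methylate thiols. All 13 were measured and well above background, and 0 of 13 differed at an unadjusted p under 0.05, against 8.00% of all genes, with 0 to 2 over the alternatives. Their differences ranged from −0.12 to 0.37, with a median of 0.02 against 0.13 over all genes, those near background included. The brightest of them were Dao, the D-amino acid oxidase, at −0.01, Cbs, the cystathionine synthase that also makes hydrogen sulfide, at −0.06, and Sqor, the mitochondrial enzyme that oxidizes sulfide, at −0.05, which passed after quantile normalization (−0.13) and in the authors' table (−0.11).

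The second list, of enzymes that remove hydrogen peroxide or formaldehyde, had 1 of 12 members higher in Selenbp1-KO kidneys and 0 lower, against 6.87% and 1.13% of all genes, a share near the background. Over the alternatives, 0 to 4 members passed, and the median difference was 0.10. The member that rose was Gpx4, the glutathione peroxidase that acts on lipid peroxides in membranes, with 7.13, 7.16, and 7.32 in WT and 7.59, 7.64, and 7.51 in Selenbp1-KO kidneys. The groups do not overlap, and the difference was 0.38 (standard error 0.105, adjusted p = 0.279 from limma), called by its unadjusted p and lost with the slide row or the replicate number as a block. Gpx1, the selenoprotein whose level is often set beside that of SELENBP1, had 8.41, 8.48, and 8.50 in WT and 8.59, 8.59, and 8.59 in Selenbp1-KO kidneys. Its groups do not overlap either, but the difference of 0.13 did not pass the test and was −0.17 after quantile normalization of the arrays. Gpx3, the peroxidase that the kidney secretes into plasma, differed by 0.14, and after quantile normalization by −0.15, which passed the test in the opposite direction. The peroxiredoxin gene Prdx5 differed by 0.19, and by −0.048 after quantile normalization.

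The third list holds the aryl hydrocarbon receptor, its partners, and the genes it induces. Of its 9 members, 6 stood well above background throughout a genotype and 2, Ahrr and Cyp1a2, on none. None of the 9 differed at an unadjusted p under 0.05, against 8.00% of all genes, and 0 to 2 did over the alternatives. Their median of 0.14 was close to the 0.13 of all genes, but both medians include genes near background. The 6 well above background differed by −0.14 (Arnt) to 0.16 (Cyp1b1). The brightest were Nqo1, a quinone reductase, at −0.04, Tiparp, a repressor of the receptor, at −0.10, and Arnt at −0.14. Arnt passed in 3 of the 17 alternatives, and its groups do not overlap, as for 13.3% of all probes tested in either direction. Its probe begins at base 95301081 of chromosome 3 on mm9, the chromosome of the pair. Whether its place there has any part in its difference was not tested.

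Markers of other cells were read beside the fall of Selenbp1 and Selenbp2, since both genes are also active outside the kidney. Over all genes, 8.00% differed at an unadjusted p under 0.05 from limma, 6.87% higher and 1.13% lower in Selenbp1-KO kidneys. Of 8 liver markers, 0 differed. Their summed signal relative to the 75th percentile was 20.4 to 23.7 in WT and 20.0 to 29.4 in Selenbp1-KO kidneys. Some of them spread widely between Selenbp1-KO replicates 1, 2, and 3, with Alb at −0.80, 1.64, and 2.16 and Ahsg at −6.87, 0.17, and 0.83. The brighter Apoa2 varied less, at 3.08, 3.42, and 3.60, so the sums hide this spread. Of 6 adrenal cortex markers, 0 differed and 4 were well above background on no array, with sums of 0.121 to 0.152 and 0.144 to 0.155. Of 5 fat markers, 0 differed, with overlapping sums of 10.71 to 40.7 and 18.6 to 104. Of 4 red blood cell markers, 3 were higher in Selenbp1-KO kidneys (Hba-a1 by 0.56, Hbb-b1 by 1.26, and Alas2 by 0.86), with sums of 257 to 344 and 363 to 538, so that these groups do not overlap. None of the 4 was near background. Among all probes tested, the groups did not overlap for 13.3%, in either direction. The part of red blood cell RNA in the Selenbp1 and Selenbp2 values was not tested.

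Slide position goes partly with genotype. All 6 arrays lie on 1 slide, WT replicates 2 and 3 in one row of it and WT replicate 4 with all Selenbp1-KO arrays in the other. Within the second row, the 3 Selenbp1-KO arrays differed from WT replicate 4 by −2.95 for Selenbp1 and −3.13 for Selenbp2 on the log2 scale. The other row holds no Selenbp1-KO array, so a fit with the slide row as a block estimates this same difference. It is not a second check, and for every gene it sets the Selenbp1-KO arrays against WT replicate 4 alone. With the slide row as a block, the differences were −2.95 and −3.13, and the adjusted p of each was 0.0951. Leaving out WT replicate 2 raised the adjusted p of each to 0.0543, and leaving out Selenbp1-KO replicate 3 raised it to 0.0525, with differences of −2.95 and −2.98 for Selenbp1 and −3.18 and −3.21 for Selenbp2. Over all alternatives, the adjusted p ranged from 2.94e-37 to 0.113 for Selenbp1 and from 1.52e-38 to 0.113 for Selenbp2, with the lowest from limma's trend and robust options.

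**Figure D4:**
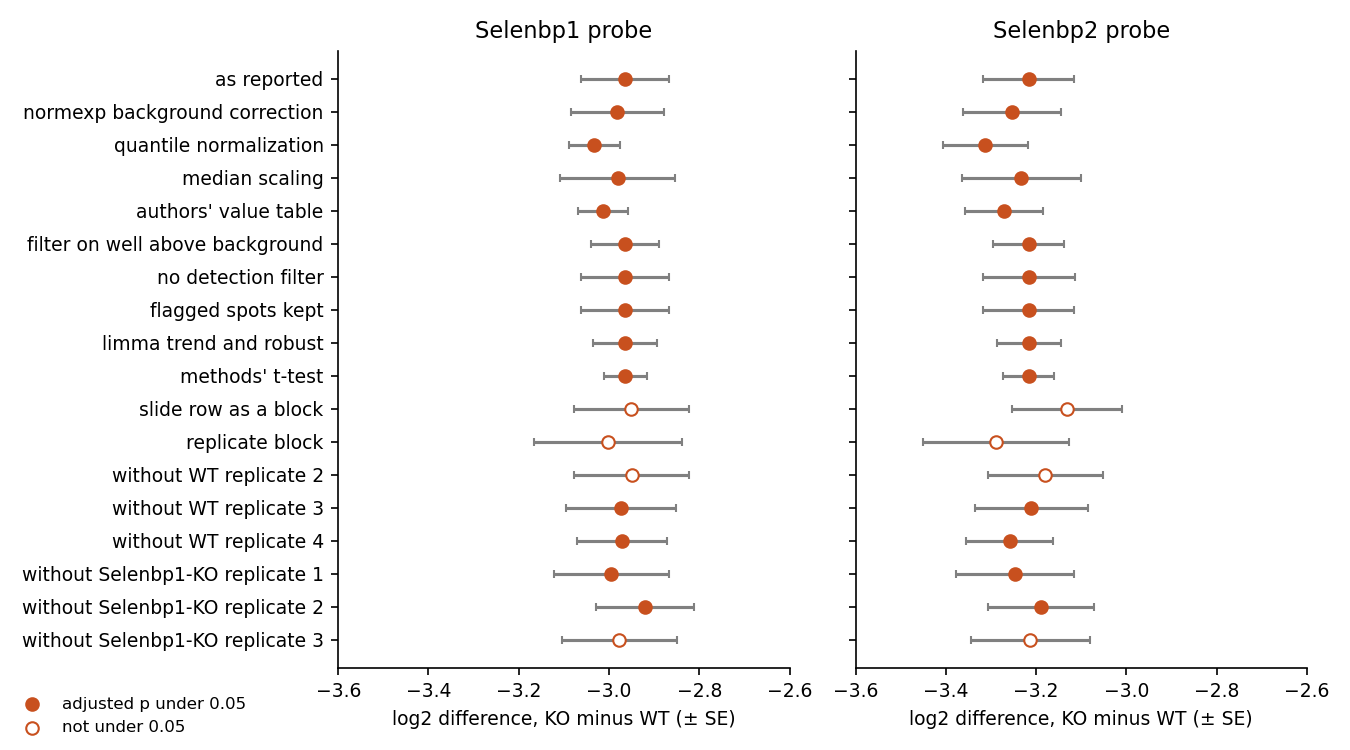
Log2 difference between Selenbp1-KO and WT kidneys (x axis, KO minus WT, bars of ± 1 standard error) of the Selenbp1 probe (left) and the Selenbp2 probe (right) as reported and under each of 17 alternatives (y axis), filled where the adjusted p is under 0.05. The values lie between −3.03 and −2.92 for Selenbp1 and between −3.31 and −3.13 for Selenbp2, and 4 of the 17 points of each probe are open.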

How the data were processed

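Kidney RNA of 3 WT and 3 Selenbp1-KO mice was hybridized to 1-color Agilent arrays (62976 spots). The labels name another array layout than the file headers, and the array design of the headers was used. The authors deposited the scanner output of Feature Extraction (version 9.5.1.1 per the submitters' processing notes and 10.7.1.1 in the headers of all 6 files), whose intensity is linear, background-subtracted, and not scaled between arrays, with a p-value of each spot against background. Their table of quantile normalized intensities, deposited beside it, was used as an alternative. The array is the unit of depth: 51.8% to 55.5% of spots were well above background, and the number of arrays limits the precision.

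Here, processed signals were divided by the 75th percentile of their array's non-control spots and log2 transformed. Flagged spots (44 to 73 an array) were dropped, and repeated spots were averaged. A probe was tested if its detection p was under 0.05 on 1 or more arrays (56097 were, 508 were not), by lmFit and eBayes of limma 3.58.1 in R 4.3.3, two-sided, with Benjamini–Hochberg adjustment over all probes. Selenbp1 and Selenbp2 were called by the adjusted p, other genes by the methods' criterion of p under 0.05 unadjusted. p-values measure the spread between these mice. Genes were named through RefSeq (GRCm38.p6; 32994 probes matched), otherwise as in the files, and read by the brightest probe. The fit was tested on simulated data. The genes, lists, and tests were chosen with earlier results of these data known. The genes named are both members, the 5 nearest genes on each side, list members with an unadjusted p under 0.05 and up to 3 of the brightest others, and the 5 genes most like Selenbp1. Slpi was named after its value was seen. Lower bounds set the bright group's mean against, for each array of the dim group, its own signal or the lowest one well above background, whichever is higher. Motifs were searched on both strands of 300-base RefSeq promoters, and the pair was aligned with Biopython (version 1.88). Alternatives were normexp (offset 50), quantile normalization, median scaling, the authors' table, other filters, flagged spots kept, the methods' t-test, limma's robust trend (statmod 1.5.0), slide row or replicate number as a block, and leaving out each array.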

Additional observations from a re-analysis of the deposited data

How the results depend on the processing

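The slide row block reads each genotype difference from WT replicate 4 against the Selenbp1-KO arrays alone. Both falls kept their direction and an unadjusted p under 0.05 in all 17 alternatives, and an adjusted p under 0.05 in 13. With the slide row as a block they were −2.95 and −3.13 (adjusted p = 0.0951). The groups share 2 replicate numbers, whose deviations correlated at 0.17 and 0.19, too few pairs to treat the mice as paired. The replicate block, whose differences rest on these 2 pairs alone, gave falls of −3.00 and −3.29 (adjusted p = 0.113). With it, the count of probes at an unadjusted p under 0.05 went from 4479 to 18430. That count was 14616 with median scaling, 2841 among probes well above background, 7536 with the trend and robust options, and 2024 to 17585 with 1 array left out. The count at an adjusted p under 0.05 was 10 with quantile normalization and with the authors' table, 183 with the trend and robust options, 0 with either block, and 0 to 12522 with 1 array left out (0 without WT replicate 2 or Selenbp1-KO replicate 3, 12522 without WT replicate 4). With 1 array left out, the falls were −2.99 to −2.92 for Selenbp1 and −3.26 to −3.18 for Selenbp2. The Selenbp1 change minus the Selenbp2 change, 0.25, was 0.18 with the slide row. Among probes well above background, the WT percentiles were 99.1 and 99.2.

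The unadjusted p of Gpx4 was 0.0815 with the slide row (difference 0.26) and 0.0551 with the replicate block (0.43). That of Rfx5 was 0.0203 with the slide row (0.65) and 0.0331 with normexp (0.26), and that of ENSMUST00000118050 was 0.0499 with the replicate block (−0.58). The call of Gm14858 held in 11 of the 17 alternatives. Small differences changed sign in places, among them that of Gpx3, which passed the test after quantile normalization. The difference of Gm14858, −1.27 as reported, was not small and had passed the test, and it changed sign with normexp. The cause was not tested. With quantile normalization, the differences that changed sign were −0.17 for Gpx1, −0.15 for Gpx3, −0.048 for Prdx5, and −0.079 for Psmb4. With the authors' table, they were −0.078 for Gpx1, −0.030 for Gpx3, and −0.045 for Psmb4. With the slide row, they were −0.16 for Gpx3, −0.023 for Prdx5, 0.0037 for Tiparp, 0.51 for ENSMUST00000118050, −0.060 for Psmb4, −0.32 for B230398E01Rik, and 0.096 for Zfp687. With the replicate block, they were 0.025 for Dao, 0.049 for Cgn, 0.0039 for Pogz, and −0.016 for Pi4kb. With normexp, they were 0.19 for ENSMUST00000118050, 0.14 for A730011C13Rik, and 0.0069 for Gm14858. With 1 array left out, the ranges were −0.079 to 0.053 for Dao, −0.15 to 0.057 for Nqo1, −0.023 to 0.33 for B230398E01Rik, and −0.014 to 0.096 for Pi4kb.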
